A study of Mus musculus with 36 samples.

Results

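The receptors of gamma-aminobutyric acid (GABA), glycine and glutamate, the fast transmitters of the brain, were followed in mouse striatum through 36 listed genes of their subunits. Members were the probe sets that a probe-to-gene table assigned to exactly 1 of these genes and whose log2 intensity exceeded 6.64 on at least 9 of 36 arrays. Of the 36 genes, 34 had a probe set of 1 gene symbol and 33 a detected one, and 66 of their 76 probe sets were detected, among 27212 detected and tested of 45101 on the array. No probe set of 1 symbol was matched to Gabbr2 and Grin1, which were not analysed here, and the probe set of Grin2a, an NMDA receptor subunit, exceeded the limit on 1 array.

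Mice of the inbred strains SWR/J, DBA/2J, C57BL/6J and 129P3/J received saline, acute morphine or chronic morphine, and each of the 12 groups was measured on 3 Affymetrix Mouse Genome 430 2.0 arrays. All were adult males of 8 to 10 weeks injected subcutaneously. In the chronic groups, 3 daily injections of morphine hydrochloride were raised from 10 mg/kg on the first day through 20 to 40 mg/kg, which was held until day 4, and 1 more injection of 40 mg/kg followed on day 5. Acute groups received saline on the same schedule and a single dose of 20 mg/kg on day 5, so the treatments differ in the last dose as well as in the history, and saline groups received saline throughout. Tissue holding the rostral caudate/putamen together with the nucleus accumbens was taken 4 hours after the last injection, and each array held the RNA of an independent pool of 3 mice, so that p-values measure the spread between pools. Values are log2 of the deposited signal intensities. They compare arrays for the same probe set only, since probe sets differ in sensitivity.

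Ionotropic GABA and glycine receptors are chloride channels assembled from several subunits around a pore, and their alpha, beta, gamma and delta subunits set where the channel sits and how it answers its ligand. Ionotropic glutamate receptors of the AMPA, NMDA and kainate classes are cation channels that carry fast excitation. The metabotropic receptors, Gabbr1 and the Grm genes, act through G proteins and adjust transmitter release and excitability. In the striatum the medium spiny neurons release GABA themselves and receive glutamate from cortex and thalamus, so both receptor systems meet on the same cells.

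Of 10 markers of medium spiny neurons, 8 were detected, and Penk, the enkephalin precursor, reached a mean log2 intensity of 12.17, as the label striatum implies. Markers of other cell types were present too. The summed intensity of 5 detected of 7 cortical excitatory neuron markers, Slc17a7, Nrn1, Rorb, Neurod6 and Tbr1, ranged from 811 to 2349 over the saline arrays, from 1280 to 2601 over the acute and from 1523 to 3504 over the chronic arrays. Saline arrays stood apart in their control transcripts in 3 cases: replicate 3 of 129P3/J and replicate 3 of DBA/2J had poly-A control scores of -3.69 and -3.61 on a centred log2 scale against -0.86 or more on the others, and replicate 1 of C57BL/6J had a 3′ over 5′ difference of Gapdh of 0.718 against at most 0.124 elsewhere. Results were also computed without these 3 arrays. In bulk tissue, fewer cells of a type and less RNA per cell cannot be told apart.

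Over all strains, chronic morphine was followed by lower signal of 6 receptor probe sets of 6 genes and by higher signal of 0 at an adjusted p under 0.05 (limma), a share of 9.09% of the 66 members against 4.73% of all probe sets tested (3.37% lower and 1.36% higher). The genes were Glra2, Gabrg1, Grm4, Grid1, Grik2 and Gabra2, each with the same sign in all 4 strains. The median difference of the 66 members was -0.03 on the log2 scale, and that of all tested probe sets 0.00012. At an unadjusted p under 0.05, 15 members passed.

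**Figure D1:**
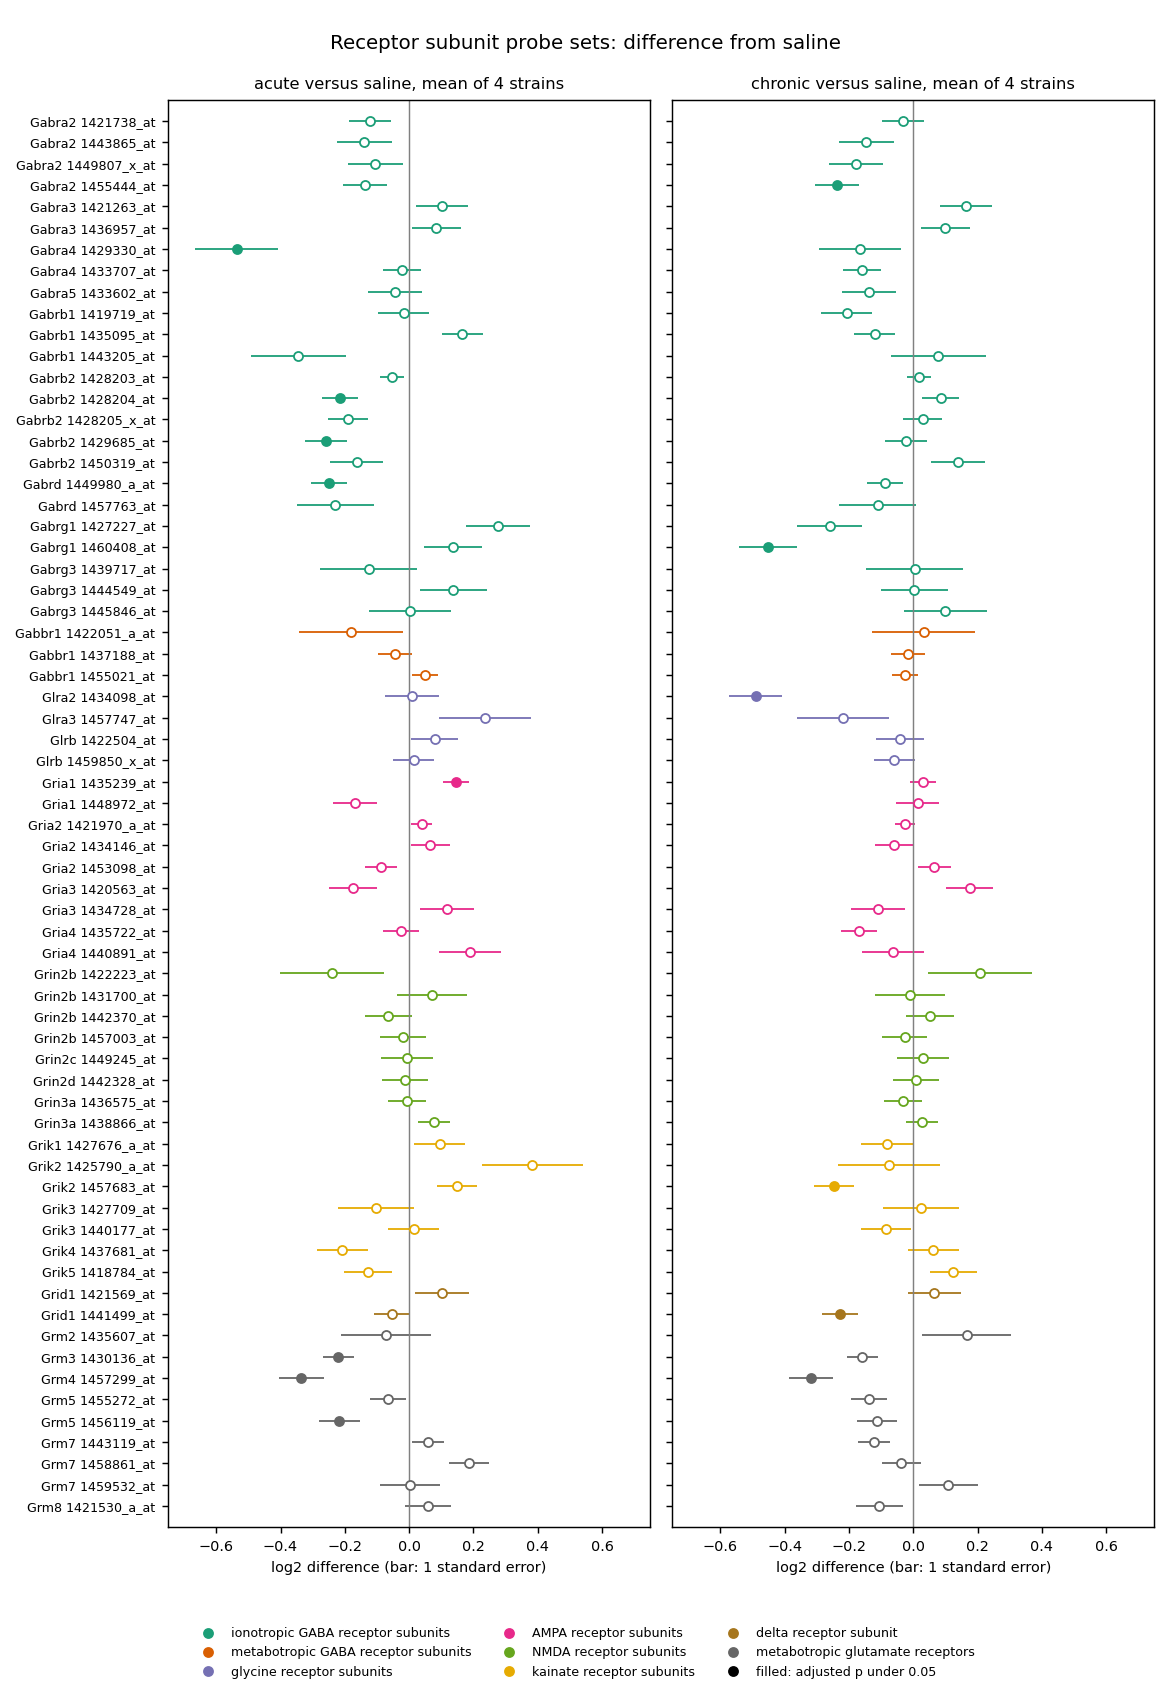
Log2 difference from saline (x axis, mean of the 4 strains, bars 1 standard error) of each of the 66 receptor probe sets (y axis, gene and probe set, coloured by receptor family) after acute (left) and chronic (right) morphine. Filled points have a limma adjusted p under 0.05: 8 on the left, of which 7 lie below 0, and 6 on the right, all below 0.

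The largest of these differences belonged to Glra2, the alpha 2 subunit of the glycine receptor, which is the prevailing alpha subunit of immature neurons and persists in the adult striatum. Its log2 intensity ran from 6.71 to 7.29 (median 6.96) on the 12 chronic arrays, from 6.94 to 7.79 (median 7.55) on the 12 saline arrays and from 7.20 to 7.76 (median 7.51) on the 12 acute arrays. The chronic arrays lay low and overlapped with the low end of the saline arrays, while the acute arrays lay within the saline range. After chronic morphine Glra2 fell by 0.49 on the log2 scale (SE 0.083, limma adjusted p = 0.00102), to 71.2% of the saline level. By strain the difference was smallest in 129P3/J (-0.36) and SWR/J (-0.41), followed by DBA/2J (-0.53) and C57BL/6J (-0.66). Acute against saline gave 0.01 (adjusted p = 0.971), and chronic against acute -0.50 (SE 0.083, adjusted p = 0.000371).

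Gabrg1 encodes the gamma 1 subunit of the GABA-A receptor, a scarcer relative of the gamma subunits at most synapses, and is also transcribed in glia. Its brighter probe set, 1460408_at, read 8.04 to 8.54 (median 8.34) on the chronic arrays, 8.19 to 9.24 (median 8.80) on the saline arrays and 8.53 to 9.17 (median 8.88) on the acute arrays. Chronic and acute arrays touched at 8.54 and 8.53 and hardly overlapped. Gabrg1 fell by 0.45 against saline (SE 0.090, adjusted p = 0.00407) and by 0.59 against acute morphine (SE 0.090, adjusted p = 0.000222). The second Gabrg1 probe set, 1427227_at, ran along with it (r = 0.888 over the 36 arrays) and differed by -0.26 from saline (adjusted p = 0.124) and by -0.54 from acute morphine (SE 0.100, adjusted p = 0.000745). This probe set exceeded the detection limit on 24 of 36 arrays, so its lower values are uncertain.

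Within single strains, C57BL/6J alone had receptor probe sets past the threshold for chronic morphine against saline, 2 of 66 against 1.75% of all probe sets there and 0.0294% in SWR/J, 0.00735% in DBA/2J and 0.00367% in 129P3/J, where 0 members passed and 5, 1 and 5 had an unadjusted p under 0.05. There Glra2 read 7.66, 7.79 and 7.42 on the saline arrays and 6.99, 7.13 and 6.78 on the chronic arrays (-0.66, SE 0.166, adjusted p = 0.0384). Gabrg1 read 9.24, 9.05 and 8.83 on the saline arrays and 8.40, 8.54 and 8.07 on the chronic arrays (-0.70, SE 0.179, adjusted p = 0.0419). Both calls were lost without C57BL/6J saline replicate 1 or 2 or chronic replicate 1 or 3 (0 calls each), and 1 was left without acute replicate 3 of 129P3/J, C57BL/6J or DBA/2J. Without C57BL/6J saline replicate 3 there were 7 calls, and without its chronic replicate 2 there were 8. The response of C57BL/6J was not shown to differ from that of the other strains (adjusted p = 0.745 for Glra2 and 0.638 for Gabrg1). That comparison called 0.0% of all probe sets.

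Grm4, Grik2, Grid1 and Gabra2 made up the rest of the chronic list. Grm4, a presynaptic metabotropic receptor of the inhibitory group III found on the terminals of striatal and cortical neurons, read 8.52 to 9.03 (median 8.73) on the chronic arrays, 8.73 to 9.46 (median 9.08) on the saline arrays and 8.39 to 9.12 (median 8.75) on the acute arrays. It was the 1 member past the threshold after both treatments, with a fall of 0.32 after chronic (SE 0.069, adjusted p = 0.00771) and of 0.34 after acute morphine (SE 0.069, adjusted p = 0.00459). Both comparisons share the saline arrays. Grm4 differed by 0.02 between the treatments, within 1 standard error of 0.

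Grik2, a pore-forming kainate receptor subunit, fell by 0.25 after chronic morphine in its brighter probe set, 1457683_at (SE 0.062, adjusted p = 0.0201). The acute difference was 0.15 and did not pass (adjusted p = 0.168), with strain differences from -0.06 in C57BL/6J to 0.40 in DBA/2J. Its values ran from 9.18 to 9.55 (median 9.41) on the acute arrays and from 8.56 to 9.18 (median 9.03) on the chronic arrays. Chronic against acute, Grik2 differed by -0.40 (SE 0.062, adjusted p = 0.000253), in a comparison that called 23.4% of all probe sets. The lowest acute and the highest chronic array both read 9.18, so the groups were barely apart. In DBA/2J the acute arrays read 9.50, 9.48 and 9.48 and the chronic arrays 8.84, 9.16 and 8.90. The dimmer Grik2 probe set, 1425790_a_at, differed from saline by 0.38 after acute and by -0.08 after chronic morphine, without passing. Chronic against acute it differed by -0.46 (adjusted p = 0.0356). It exceeded the detection limit on 23 arrays, none of them of 129P3/J, so its lower values are uncertain. C57BL/6J saline replicate 1, an array that stood apart, read 5.44 in this probe set against 7.42 and 7.28 in its group. The differences of this probe set from saline rest in part on that array.

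Grid1, the delta 1 subunit of the glutamate receptor family that organises synapses rather than conducting current, read 7.97 to 8.41 on the chronic and 8.09 to 8.65 on the saline arrays in probe set 1441499_at, and fell by 0.23 (SE 0.056, adjusted p = 0.0174). Its other probe set differed by 0.07 (adjusted p = 0.684). Gabra2, a GABA-A alpha subunit frequent at synapses of the forebrain, fell by 0.24 in 1 of 4 detected probe sets, 1455444_at (SE 0.069, adjusted p = 0.0431), and the other 3 differed by -0.18 to -0.03 with adjusted p from 0.219 to 0.816. That call for Gabra2 was lost without any of 17 of the 36 arrays, among them each saline array of 129P3/J, and without the 3 arrays that stood apart (adjusted p = 0.0643).

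**Figure D2:**
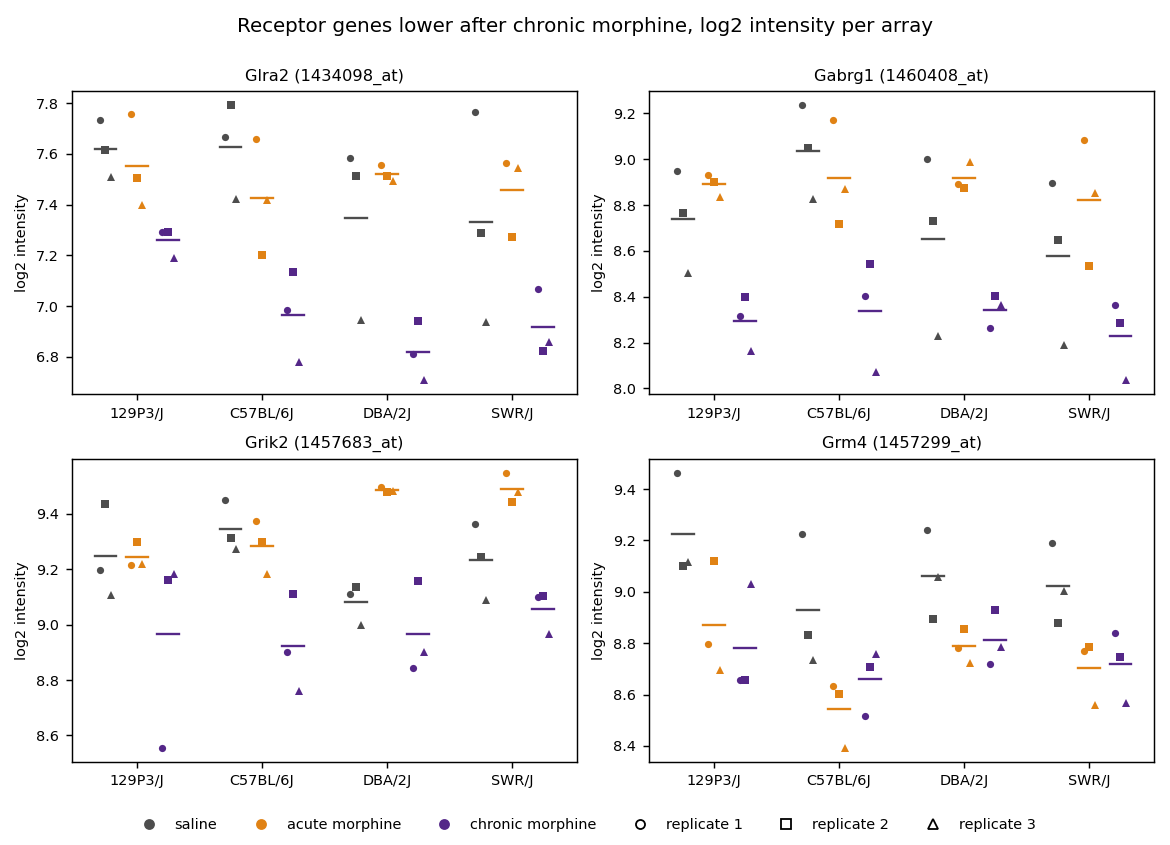
Log2 intensity (y axis) of Glra2, Gabrg1, Grik2 and Grm4 on every array of the 12 groups (x axis, strain), coloured by treatment, with symbols for the replicate number and lines for the mean of 3 arrays. Chronic arrays lie below saline and acute arrays for Glra2 and Gabrg1 in every strain mean, and saline replicate 3 is the lowest saline array of Glra2, Gabrg1 and Grik2 in all 4 strains.

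Arrays of the same treatment and number deviated together in several of these genes. Saline replicate 3 was the lowest saline array of all 4 strains for Glra2, for both Gabrg1 probe sets and for Grik2, and saline replicate 1 the highest for Grm4. With these sets entered as a random block, the chronic calls of Glra2 (adjusted p = 0.0231) and Gabrg1 (0.0477) remained past the threshold, while Grm4 (0.103), Grid1 (0.17), Grik2 (0.214) and Gabra2 (0.347) did not. Shares of all probe sets called with this block are not given, here or below. Whether such losses are particular to the receptor genes was not tested. Without the 3 arrays that stood apart, 5 of the 6 calls were kept, with Glra2 at -0.55 and Gabrg1 at -0.51.

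The upstream windows of Glra2, Gabrg1 and Grik2 are shown, genes lower after chronic morphine than after saline and after acute morphine. Grid1 was so too in 1 probe set, but its window is not shown. That of Gabra2 is shown for the strain results that follow. All were chosen after their values were seen and are as given by RefSeq for GRCm38.p6, the assembly of C57BL/6J. Each line is the 250 bases before a transcription start, read 5′ to 3′ on the minus strand, at chrX:165327394-165327643 for Glra2, chr5:70842618-70842867 for Gabrg1, chr10:49788755-49789004 for Grik2 and chr5:71095850-71096099 for Gabra2. Capitals mark matches on either strand to 4 motifs.
Glra2: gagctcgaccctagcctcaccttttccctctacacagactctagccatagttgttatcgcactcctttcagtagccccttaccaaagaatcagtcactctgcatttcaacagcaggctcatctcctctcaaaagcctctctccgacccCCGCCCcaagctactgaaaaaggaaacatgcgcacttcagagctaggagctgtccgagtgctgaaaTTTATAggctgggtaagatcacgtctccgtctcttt
Gabrg1: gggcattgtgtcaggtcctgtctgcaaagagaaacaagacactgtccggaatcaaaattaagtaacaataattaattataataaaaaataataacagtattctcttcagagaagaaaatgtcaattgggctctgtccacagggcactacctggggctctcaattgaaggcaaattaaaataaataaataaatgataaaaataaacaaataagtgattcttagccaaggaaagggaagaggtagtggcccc
Grik2: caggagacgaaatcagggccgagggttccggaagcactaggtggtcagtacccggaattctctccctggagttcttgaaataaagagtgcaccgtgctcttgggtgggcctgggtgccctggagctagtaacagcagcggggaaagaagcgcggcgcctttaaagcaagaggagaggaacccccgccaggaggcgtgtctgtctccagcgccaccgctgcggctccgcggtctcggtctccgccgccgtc
Gabra2: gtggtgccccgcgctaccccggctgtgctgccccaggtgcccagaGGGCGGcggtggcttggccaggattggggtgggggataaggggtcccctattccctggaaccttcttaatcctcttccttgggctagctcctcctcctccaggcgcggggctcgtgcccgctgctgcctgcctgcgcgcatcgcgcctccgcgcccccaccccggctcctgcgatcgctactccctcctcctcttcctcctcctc

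The motifs were TGACG, a part of the cyclic AMP response element, AGAACA, a part of the glucocorticoid response element, TATAAA and the GC box GGGCGG. No match overlapped another, and the whole response elements were not searched for. Over 32851 such windows of all genes, 17.8%, 16.1%, 12.4% and 32.7% held them in that order. The Glra2 window held a GC box and TATAAA, both on the opposite strand, the Gabra2 window held a GC box, and those of Gabrg1 and Grik2 held no match to these letters. The windows also differed in base composition, with 35.6% G and C for Gabrg1, 50.4% for Glra2, 62.8% for Grik2 and 70.0% for Gabra2 beside a median of 52.4% over all windows. Gabrg1 and Gabra2 are direct neighbours on chromosome 5, in a cluster that also holds Gabra4 and Gabrb1.

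Acute morphine was followed by lower signal of 7 receptor probe sets and higher signal of 1, together 8 of 66 (12.1%) from 7 genes against 4.69% of all probe sets tested (2.11% lower and 2.59% higher). The lower ones were Grm4, Grm3, Gabrd, Gabra4, 2 probe sets of Gabrb2 and Grm5, and the higher one was Gria1. The median difference of the 66 members was -0.02 and of all tested probe sets 0.01, and 18 members passed at an unadjusted p under 0.05.

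Grm3, a group II metabotropic glutamate receptor of astrocytes and presynaptic terminals, had narrow groups. It read 9.65 to 9.97 (median 9.80) on the acute arrays, 9.86 to 10.17 (median 10.01) on the saline arrays and 9.64 to 10.04 (median 9.86) on the chronic arrays. Most acute arrays lay below the lowest saline array, and Grm3 fell by 0.22 (SE 0.048, adjusted p = 0.00752), with strain differences between -0.27 and -0.20. Chronic morphine gave -0.16 (adjusted p = 0.053).

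Gabrd, the delta subunit of extrasynaptic GABA-A receptors, read 9.94 to 10.42 (median 10.20) on the acute and 10.11 to 10.69 (median 10.49) on the saline arrays in probe set 1449980_a_at. It fell by 0.25 (SE 0.056, adjusted p = 0.00936), with -0.30 to -0.20 in the 4 strains. Its second, dimmer probe set differed by -0.23 with adjusted p = 0.293. Against acute morphine the chronic arrays of Gabrd were higher by 0.16 (adjusted p = 0.0383).

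Gabra4, the alpha 4 subunit that pairs with delta in the striatum, fell by 0.54 in probe set 1429330_at (SE 0.128, adjusted p = 0.0147), to 68.9% of the saline level. Its arrays ran from 8.40 to 9.36 (median 8.99) after acute morphine and from 9.11 to 10.06 (median 9.45) after saline, with wide overlap. In each strain saline replicate 1 was the highest saline array, at 9.72, 10.06, 9.92 and 9.92. The brighter Gabra4 probe set, 1433707_at, differed by -0.02 (adjusted p = 0.883) and did not follow the other across arrays (r = -0.05).

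Gabrb2, the beta 2 subunit present in a large share of GABA-A receptors, had 5 detected probe sets. Acute differences were -0.26 for 1429685_at (SE 0.066, adjusted p = 0.0223) and -0.21 for 1428204_at (SE 0.057, adjusted p = 0.0283), and the remaining 3 had -0.19, -0.16 and -0.05 without passing. Probe set 1429685_at read 9.18 to 9.98 on the acute and 9.73 to 10.31 on the saline arrays, and 1428204_at read 10.33 to 10.80 and 10.61 to 11.16. The 5 agreed in sign, and 4 of them rose between acute and chronic morphine, by 0.22 to 0.30.

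Grm5, the group I receptor that couples to phospholipase C in medium spiny neurons, fell by 0.22 in probe set 1456119_at (SE 0.063, adjusted p = 0.0421), whereas its brighter probe set differed by -0.07 (adjusted p = 0.569). Gria1, an AMPA receptor subunit, rose by 0.15 in probe set 1435239_at (SE 0.040, adjusted p = 0.0328), with a sign opposite to the rest in C57BL/6J (-0.04), and its second probe set had -0.17 (adjusted p = 0.155). The Grm5 call was lost without any of 18 arrays, and the Gria1 call without any of 14.

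**Figure D3:**
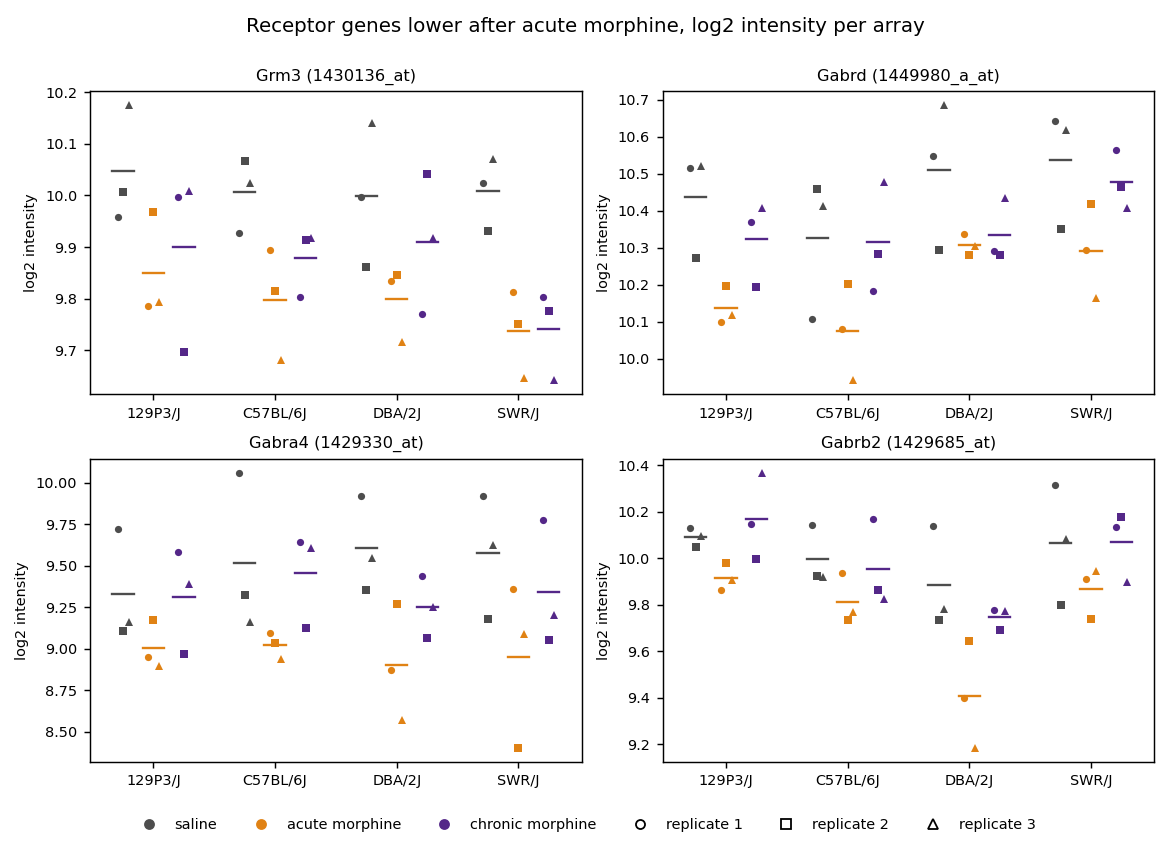
Log2 intensity (y axis) of Grm3, Gabrd (1449980_a_at), Gabra4 (1429330_at) and Gabrb2 (1429685_at) on every array of the 12 groups (x axis, strain), coloured by treatment, with symbols for the replicate number and lines for the mean of 3 arrays. The acute mean is below the saline mean in every strain, while saline replicate 1 is the highest saline array of these Gabra4 and Gabrb2 probe sets in all 4 strains.

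None of the 8 acute calls stayed past the threshold with the random block of treatment and number, where adjusted p ran from 0.0601 for Grm4 to 0.266 for Gria1. Without the 3 arrays that stood apart, 3 were kept, Grm3, Gabrd and Grm4. The count dropped to 4 without DBA/2J saline replicate 1 or DBA/2J acute replicate 3, and to 5 without 129P3/J saline replicate 1 or 3, DBA/2J saline replicate 3, SWR/J saline replicate 3 or SWR/J acute replicate 2. No receptor probe set passed for acute morphine within a strain, where the shares of all probe sets were 0.974% in DBA/2J, 0.294% in C57BL/6J, 0.0478% in SWR/J and 0.0147% in 129P3/J. At an unadjusted p under 0.05, 16, 8, 13 and 3 of the 66 passed in that order, and with the random block 1 passed in DBA/2J.

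Between chronic and acute morphine, 24 receptor probe sets of 16 genes differed, 12 in each direction (36.4% of members against 23.4% of all probe sets, of which 8.87% higher and 14.6% lower). Lower after chronic morphine were both Gabrg1 probe sets, both Grik2 probe sets, Glra2, Glra3, 1 probe set each of Gabrb1, Gria1, Gria3 and Grid1, and 2 of Grm7. The Glra3 probe set exceeded the detection limit on 14 of 36 arrays, so its lower values are uncertain. Higher were 4 probe sets of Gabrb2, with Gabra4, Gabrd, Grik4, Grik5 and 1 probe set each of Gabrb1, Gria2, Gria3 and Grin2b. Gria3, an AMPA receptor subunit, and Gabrb1, a beta subunit, each stood on both sides: Gria3 had 0.35 in 1420563_at (SE 0.074, adjusted p = 0.00182) and -0.23 in 1434728_at (SE 0.084, adjusted p = 0.0479), and Gabrb1 had -0.29 in 1435095_at (SE 0.063, adjusted p = 0.00252) and 0.42 in 1443205_at (SE 0.148, adjusted p = 0.0393).

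With the random block 7 of the 24 were left: both Gabrg1 probe sets, Glra2, Grik2 1457683_at, Gabrb2 1428204_at (0.30), Gria3 1420563_at and Gabrb1 1435095_at. Leaving out 129P3/J chronic replicate 1 or C57BL/6J acute replicate 1 reduced the count to 15 each. Within strains, DBA/2J alone had calls, 2 against 1.21% of all probe sets there and 0.228% in C57BL/6J, 0.00367% in 129P3/J and 0.0% in SWR/J, where 0 members passed and 15, 5 and 13 had an unadjusted p under 0.05. They were those for Glra2 (-0.70, SE 0.166, adjusted p = 0.0419) and Grik2 (-0.52, SE 0.124, adjusted p = 0.0421). Both were lost without any 1 of the 3 acute arrays or without chronic replicate 1 or 3 of DBA/2J, 1 was lost without 129P3/J acute replicate 3, and the count was 7 without DBA/2J chronic replicate 2 and 4 without C57BL/6J saline replicate 1, C57BL/6J chronic replicate 2 or SWR/J saline replicate 3.

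By the F-test for any effect of morphine at 1%, 12 probe sets of 10 genes passed (18.2% against 8.71% of all probe sets). Treatment accounted for up to 0.58 of the variance of a member (Gabrg1 1460408_at), with a median of 0.124 over the 66 against 0.099 over all probe sets. The count was 7 without 129P3/J acute replicate 1, 129P3/J chronic replicate 1, C57BL/6J acute replicate 3 or DBA/2J acute replicate 3, and 2 with the random block, Glra2 (adjusted p = 0.00642) and Gabrg1 (0.00438). For the interaction of strain and morphine, 0 of 66 and 0.0% of all probe sets passed, and 1 member, Gabra3 1421263_at, had an unadjusted p under 0.05 (0.0452). The difference of each strain's response from that of the others passed in 0 of 66 and in 0.0% of all probe sets for either treatment. Between 0 and 11 members had an unadjusted p under 0.05 there.

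By receptor family, the 24 detected GABA-A probe sets of 9 genes held 4 calls after acute and 2 after chronic morphine, with median differences of -0.11 and -0.06. The shares over all probe sets were 4.69% and 4.73%, and with the random block 0 of the acute calls of any family remained. The 9 metabotropic glutamate receptor probe sets of 6 genes held 3 and 1, with medians of -0.07 and -0.11. The 8 NMDA receptor probe sets of Grin2b, Grin2c, Grin2d and Grin3a held 0 after either treatment, with medians of -0.01 and 0.02, and the largest differences among them were those of Grin2b 1422223_at, -0.24 after acute (adjusted p = 0.451) and 0.21 after chronic morphine (adjusted p = 0.481). The 9 AMPA receptor probe sets held 1 and 0, the 7 kainate receptor probe sets 0 and 1, the 2 of Grid1 0 and 1, and the 4 glycine receptor probe sets 0 and 1. Besides Glra2, the glycine receptor genes Glra3 and Glrb differed by -0.22 (adjusted p = 0.383) and by -0.04 and -0.06 after chronic morphine. The 3 probe sets of Gabbr1, the ligand-binding subunit of the GABA-B receptor, ranged from -0.18 to 0.05 after acute and from -0.03 to 0.03 after chronic morphine without passing. In Gabbr1 1422051_a_at, C57BL/6J saline replicate 1, an array that stood apart, read 7.82 against 9.63 and 9.87 in its group. Its strain differences ran from -0.685 in SWR/J to 0.62 in C57BL/6J after acute and from -0.55 to 0.83 after chronic morphine. The mean differences of this probe set are therefore uncertain.

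Kainate and AMPA receptor subunits without a call against saline were Grik1, Grik3, Grik4, Grik5, Gria2, Gria3 and Gria4. Grik4 and Grik5, the high-affinity kainate subunits, differed by -0.21 and -0.13 after acute and by 0.06 and 0.12 after chronic morphine, while Grik1 differed by 0.10 and -0.08. Gria4, an AMPA receptor subunit of interneurons, differed by -0.17 (adjusted p = 0.0739) and -0.06 after chronic morphine in its 2 probe sets. Of the NMDA receptor subunits, Grin2c, Grin2d and Grin3a stayed between -0.03 and 0.08 under both treatments.

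The other GABA-A members did not pass against saline either. Gabra3, an alpha subunit of monoamine neurons and some forebrain synapses, differed by 0.10 and 0.08 after acute and by 0.16 and 0.10 after chronic morphine in its 2 probe sets, and Gabra5, an extrasynaptic alpha subunit, by -0.04 and -0.14. The 3 probe sets of Gabrg3 stayed between -0.13 and 0.14 under both treatments. Of the metabotropic glutamate receptors, Grm2 and Grm8, both presynaptic, differed by -0.07 and 0.06 after acute and by 0.17 and -0.11 after chronic morphine.

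Of 23 listed genes that make, carry and remove the transmitters, 18 were detected, and 1 was called after each treatment, where 4.69% (acute) and 4.73% (chronic) of all probe sets were. Slc38a2, a carrier of glutamine into neurons, passed after acute (0.31, SE 0.062, adjusted p = 0.00371) and after chronic morphine (0.25, SE 0.062, adjusted p = 0.0167). Between chronic and acute morphine 6 of 18 passed, 5 lower and 1 higher, in a comparison that called 23.4% of all probe sets. The GABA-synthesising enzymes Gad1 and Gad2 fell by 0.18 and 0.23 there (adjusted p = 0.0145 and 0.00683), as did Abat, the enzyme that breaks GABA down, by 0.22 (adjusted p = 0.00477).

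Of 31 listed anchoring and auxiliary proteins of these receptors, 29 were detected. Cacng3, an auxiliary subunit of AMPA receptors, fell by 0.31 after acute morphine (SE 0.081, adjusted p = 0.0269). After chronic morphine Neto2, the auxiliary subunit of kainate receptors, fell by 0.31 (SE 0.057, adjusted p = 0.00206), and so did Lrrtm1, an adhesion protein of excitatory synapses (0.31 lower, SE 0.073, adjusted p = 0.0141). With the random block the p-values of Slc38a2 after acute morphine, Neto2 and Lrrtm1 were 0.0608, 0.064 and 0.18.

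Markers of several cell types differed between the treatments as well, beside 4.69%, 4.73% and 23.4% of all probe sets called for acute against saline, chronic against saline and chronic against acute. After chronic morphine the 5 cortical excitatory neuron markers had a median difference of 0.65, and 2 of them, Nrn1 (0.60, adjusted p = 0.0276) and Rorb (0.27, adjusted p = 0.047), passed. Of 6 oligodendrocyte markers 3 were lower (median -0.24), as were 3 of 5 oligodendrocyte precursor markers (median -0.22, with Olig2 at -0.69). Of 8 astrocyte markers 2, Aqp4 and Gja1, were lower and 1, Gjb6, was higher, and of 8 medium spiny neuron markers 2, Rgs9 (-0.18) and Drd2 (-0.27), were lower. Of 4 endothelial markers 1 was lower. Between chronic and acute morphine, 4 of 8 astrocyte markers (median -0.17), 3 of 6 oligodendrocyte markers (median -0.16) and 4 of 5 precursor markers (median -0.24) were lower, and the precursor marker Cspg4 and the microglia marker Cx3cr1 were higher. In the same comparison 1 of 5 cortical excitatory neuron markers was higher (median 0.35). There 1 marker each of medium spiny neurons, of striatal interneurons and of thalamic and septal neurons was lower. After acute morphine the astrocyte marker Gjb6 was higher, and the precursor marker Olig2, the microglia markers Cx3cr1 and Aif1 and the endothelial marker Flt1 were lower. The summed astrocyte marker intensity ran from 12192 to 15817 on the saline, from 13206 to 15139 on the acute and from 12181 to 13872 on the chronic arrays, and that of the precursor markers from 3338 to 4684, from 3462 to 4149 and from 2938 to 3766. The part of these markers in the receptor results was not tested.

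Strain differences were larger than those of morphine for some members. At 1%, 14 of the 66 probe sets from 9 genes differed between strains (21.2% against 13.2% of all probe sets), and strain accounted for more than 0.6 of the variance of 8 of them (12.1% of members, 5.39% of all). Gabra2 did so in all 4 detected probe sets, while for Gabrg3, Grm7, Grik2, Gria2 and others a single probe set of the gene, or part of them, carried the difference. Whether strains differ there in the sequence under the probes, in transcript form or in level was not tested. With the brightest probe set of each gene only, 2 genes passed, Gabra2 and Gabbr1. Of the 14, 11 exceeded the detection limit on every array. The other 3, 1 probe set each of Gabrg3, Grm7 and Grik2, passed the filter only through strains where they are high. They are among the 8, and their large shares of variance are no independent support.

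Gabra2 was low in C57BL/6J. Its brightest probe set, 1455444_at, read 8.50 to 9.30 (median 9.05) on the 9 C57BL/6J arrays, against 9.68 to 10.33 in DBA/2J, 9.76 to 10.31 in SWR/J and 9.89 to 10.27 in 129P3/J. Probe set 1443865_at read 7.18 to 7.87 in C57BL/6J and 8.24 or more on every other array. In both, the C57BL/6J arrays lay below all others. Compared with the mean of the other 3 strains, C57BL/6J had 48.7% of the signal in 1455444_at (log2 difference -1.04, SE 0.065, limma adjusted p = 5e-13) and 43.2% in 1443865_at (-1.21, SE 0.081, adjusted p = 2.64e-12).

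The other Gabra2 probe sets, 1449807_x_at and 1421738_at, differed in the same direction by -0.68 and -0.49 (adjusted p = 2.35e-07 and 7.78e-07), with overlap between strains. The 4 probe sets correlated over the 36 arrays with r from 0.578 to 0.966, as a description of arrays that share strains. The strain test of each probe set passed without any 1 of the arrays and under the 11 alternatives run. Among 129P3/J, DBA/2J and SWR/J the means of 1455444_at were 10.08, 10.01 and 9.97, and these strains differed by less than their standard deviations of 0.13 to 0.18. The genes next to it did not follow: in C57BL/6J neither Gabrg1 nor Gabra4 was called against the mean of the strains, and Gabrb1 was called in 1 of 3 probe sets, in the higher direction.

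**Figure D4:**
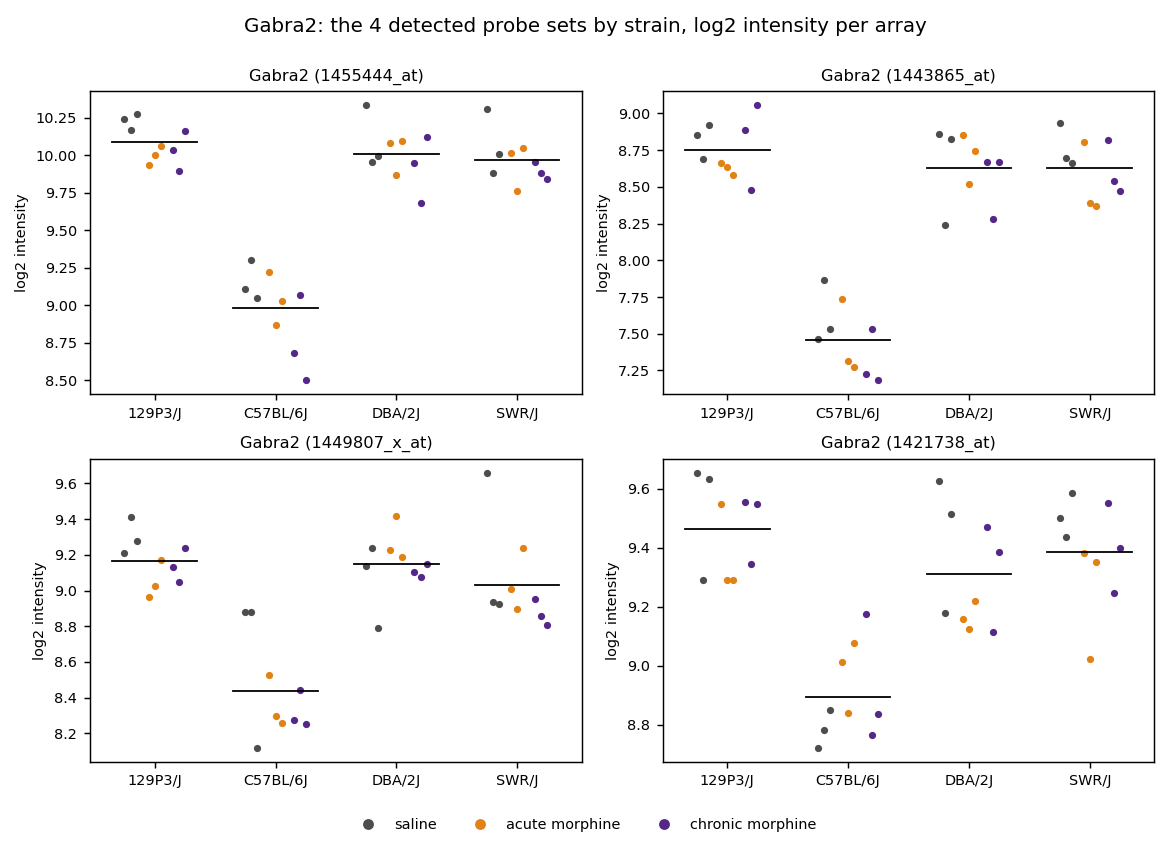
Log2 intensity (y axis) of the 4 detected Gabra2 probe sets on the 9 arrays of each strain (x axis), coloured by treatment, with a line for the strain mean. C57BL/6J is lowest in all 4, and in 1455444_at and 1443865_at its arrays do not overlap with those of any other strain.

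In 3 genes, 4 probe sets exceeded the detection limit on no array of at least 1 strain, and 3 of these, 1 of each gene, differed between strains. Gabrg3, the gamma 3 subunit, read 2.74 to 3.16 in 129P3/J in probe set 1439717_at, with 4 of the 9 arrays at the floor of the deposited values, and 5.86 to 7.77 on the other 27 arrays. Since no 129P3/J array exceeded the limit, the signal of the other strains was at least 1.34-fold higher, from their mean of 7.07 against the limit. The measured mean of 129P3/J was 2.87 (adjusted p = 4.33e-19 for 129P3/J against the mean of the strains). The probe set was detected only through the other strains, so this p-value is no independent support. The other detected Gabrg3 probe sets, 1445846_at and 1444549_at, were not called between strains, and 1444549_at read 6.01 to 6.52, below the limit, on all 9 arrays of DBA/2J.

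Grm7, a presynaptic group III metabotropic receptor, read 7.14 to 7.76 in DBA/2J and 5.07 to 6.07 in the other strains in probe set 1459532_at. The signal of DBA/2J was thus at least 1.73-fold higher (means 7.43 and 5.66, adjusted p = 1.6e-15). This probe set was detected only through the 9 arrays of DBA/2J, so that it had to differ. The brightest Grm7 probe set, 1443119_at, was not called, and 1458861_at was low in 129P3/J by -0.22 against the mean of the strains (adjusted p = 0.000577).

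Grik2 was low in 129P3/J in its dimmer probe set, 1425790_a_at, at 5.32 to 6.16 against a median of 7.09 over the other strains. This is at least a 1.32-fold difference in signal (means 5.78 and 7.04, adjusted p = 2.87e-07). The probe set was detected only through the other strains, so this p-value is no independent support. C57BL/6J saline replicate 1, the array with the deviating Gapdh ratio, read 5.44 there, and its 2 fellow arrays 7.42 and 7.28. The brighter Grik2 probe set, 1457683_at, which carried the morphine results, had strain deviations of at most 0.07. The same array was also low in 1 probe set of Gabbr1, 1422051_a_at, at 7.82 against 9.63 and 9.87 in its group.

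**Figure D5:**
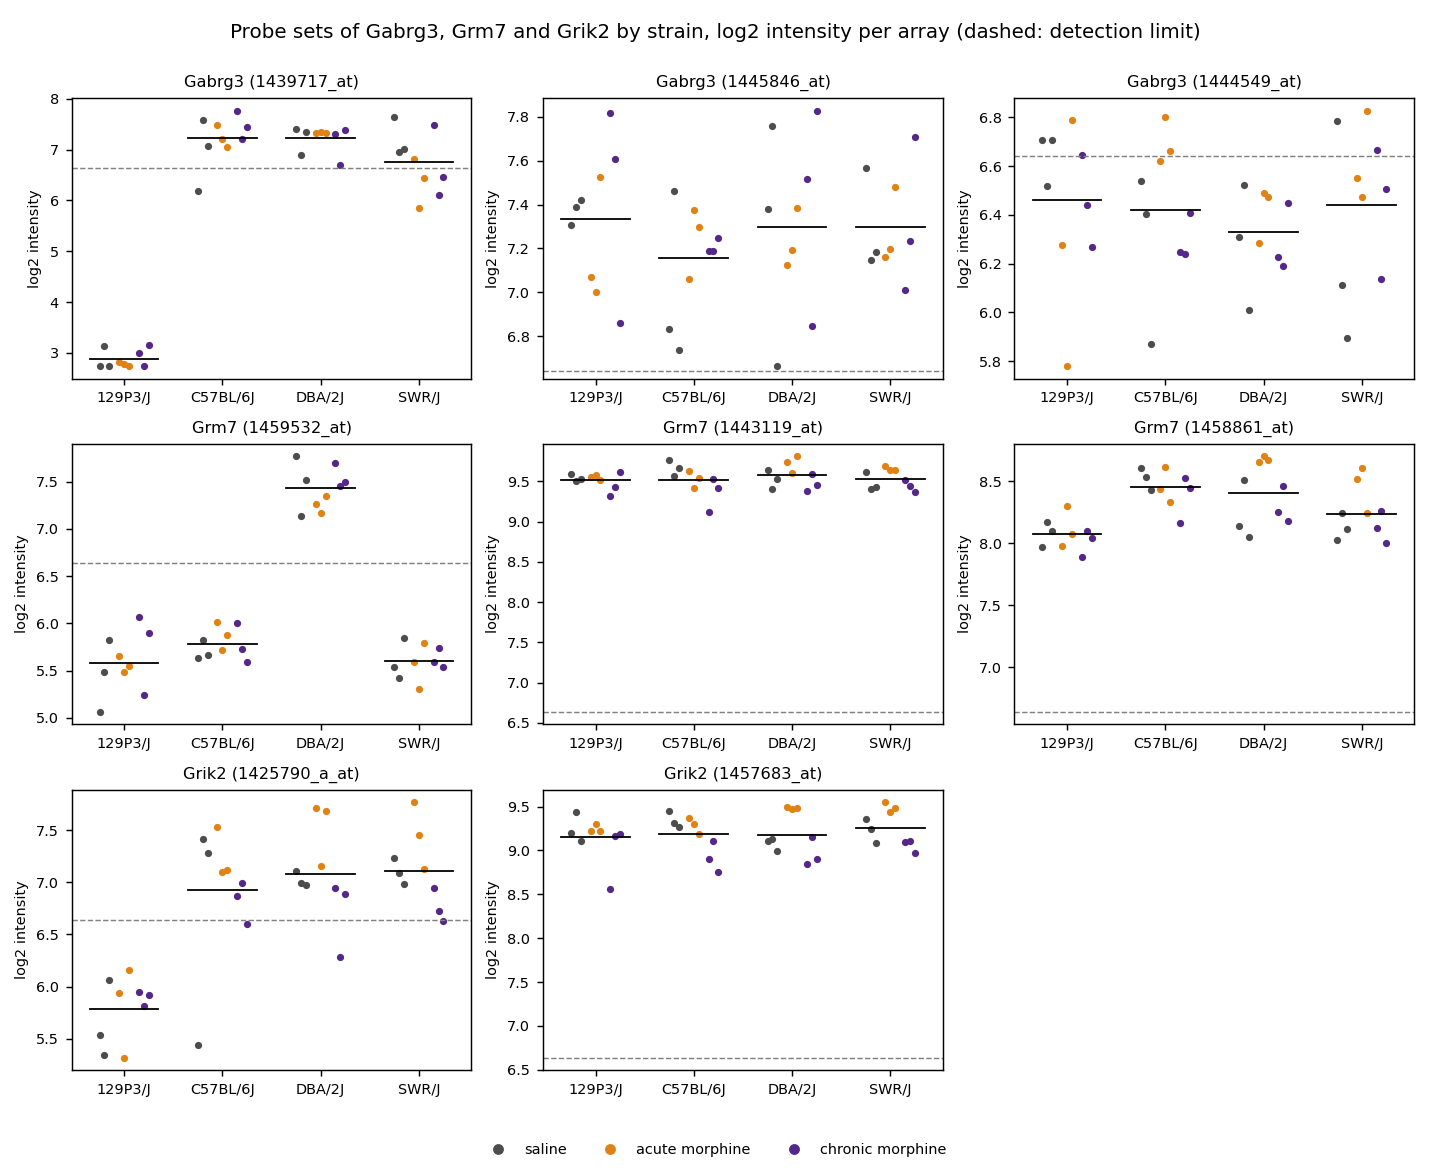
Log2 intensity (y axis) of the detected probe sets of Gabrg3, Grm7 and Grik2 on the 9 arrays of each strain (x axis), coloured by treatment, with a line for the strain mean and a dashed line at the detection limit of 6.64. In each row the first panel holds the probe set that separates a strain, and the panels beside it hold the other probe sets of that gene, whose strain means differ less; each panel has its own y range.

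Gria2, the AMPA receptor subunit that sets calcium permeability, split the strains into pairs in probe set 1453098_at. It read 9.83 to 10.13 in 129P3/J and 9.73 to 10.26 in C57BL/6J, against 10.20 to 10.67 in SWR/J and 10.14 to 10.57 in DBA/2J. The means were 9.96, 9.91, 10.43 and 10.40, so that strains within a pair differed by less than their spread. The brighter probe sets 1421970_a_at and 1434146_at were not called, and across arrays they ran against 1453098_at (r = -0.66 and -0.33).

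Strain differences were also found for Gabrb1, Gabrb2, Gabbr1 and Gria1. Gabrb1 1443205_at was higher in C57BL/6J and SWR/J (0.38 and 0.33 from the mean of the strains) and lower in DBA/2J (-0.42), where its arrays ran from 7.46 to 9.17. Gabrb2 was lower in DBA/2J in 3 of 5 probe sets (-0.23, -0.18 and -0.15), and Gabbr1 1455021_at in DBA/2J by -0.15 (adjusted p = 0.000423). Gria1 1448972_at was lower in C57BL/6J by -0.25 (adjusted p = 0.000417), whereas its brighter probe set 1435239_at was higher there by 0.09 (adjusted p = 0.0433).

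Against the mean of the strains, 9 of 66 probe sets were called in SWR/J, 12 in DBA/2J, 12 in C57BL/6J and 10 in 129P3/J, against 9.7%, 8.53%, 11.2% and 9.22% of all probe sets. Some members were called in 1 strain without passing the test over strains at 1%: Grik3 in C57BL/6J (-0.19), Gabra5 (-0.21) and Grin3a (-0.17) in SWR/J. These counts include the 3 probe sets near or below the detection limit described above.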

How the data were processed

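RNA of striatum from 36 pools was hybridised to 36 arrays, and the deposited values are linear signal intensities that the authors computed in dChip as model-based indices from each perfect-match probe with its mismatch partner, normalized between arrays. Array medians ran from 119 to 133, 3.68% to 4.53% of values per array lay at a floor of 6.69, and 2 values were missing. Depth has no meaning for arrays, and their number limits the precision.

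Intensities were taken to log2, and 27212 probe sets above 6.64 on at least 9 arrays were tested. The groups come from the sample labels. A model of 12 group means was fitted with limma 3.58.1 in R 4.3.3, with Benjamini-Hochberg adjustment over all tested probe sets, at 0.01 for F-tests over strain, morphine and their interaction and at 0.05 for contrasts. Values are given for member probe sets past a threshold and for the 2 members of largest change in each receptor family. The members and lists were chosen with earlier results of these data known. Alternatives were no filter or a filter on the mean, a pseudocount of 16, median centring, quantile normalization, a random and a fixed block for replicate number, array weights, a classical test, a trended prior, the brightest probe set per gene and the omission of arrays, singly and, chosen after seeing the data, the 3 with deviating control transcripts together. The numbers do not pair the samples by any label: arrays of the same treatment and number deviated together with a mean r of 0.264 over 54 pairs, from -0.473 to 0.663. On simulated data, 38% of 1.2-fold, 90.8% of 1.5-fold and 99.6% of 2-fold changes were recovered for chronic morphine over all strains, and 0%, 48% and 87.6% within a strain. The simulated arrays varied independently, without the shared deviations of the same treatment and number, so these shares may be too high for the data.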

Additional observations from a re-analysis of the deposited data

How the results depend on the processing

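Of 111 calls of receptor probe sets, 58 were kept under every alternative and omission run, and 0 changed sign. F-tests have no sign, so this holds for the contrasts only. The genes of the transmitter, anchoring and marker lists were rerun with the random block only. With the replicate block as a random effect (consensus correlation 0.241), the morphine F-test passed 2 members in place of 12, acute morphine 0 in place of 8, chronic morphine 2 in place of 6, chronic against acute 7 in place of 24, and within strains acute 1 in place of 0 and chronic against acute 5 in place of 2. The numbers share no label that pairs them, so a call lost under the block is not described as a weaker effect. With the number as a fixed block, within-strain counts were 8 for acute, 4 for chronic and 9 for chronic against acute.

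With array weights the counts were 25 for the morphine F-test, 18 for acute, 10 for chronic, and within strains 19 for acute, 4 for chronic and 48 for chronic against acute, with 5 differences in response in place of 0. Without the filter the morphine F-test gave 7, acute 5, and within strains chronic 0 and chronic against acute 0. With the brightest probe set per gene the counts were 2 for strain, 7 for morphine, 5 for acute, 12 for chronic against acute and 10 in place of 43 for single strains. Without the 3 arrays with deviating controls, acute gave 3 and chronic within strains 0. Within strains, the classical test without moderation gave 1 for acute and 1 for chronic, a trended prior 1 for acute, and quantile normalization 1 for chronic against acute. The causes were not tested. Counts under the alternatives and omissions are given without the shares over all probe sets. Whether the changes in count are particular to the receptor genes was not tested.

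Leaving out each array in turn gave 14 to 16 for strain, 7 to 16 for morphine, 0 for the interaction, 4 to 10 for acute, 5 to 9 for chronic, 15 to 28 for chronic against acute, and within strains 0 to 3, 0 to 8 and 0 to 7. Single strains gave 37 to 45, and differences in response 0. The acute count within strains was 3 without DBA/2J saline replicate 2, and 1 without DBA/2J acute replicate 2 or 129P3/J chronic replicate 1. Signal near background limits the 15 probe sets that exceeded the detection limit on part of the arrays.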
